A study of Mus musculus with 6 samples.

Results

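Splenic CD4 T cells with Foxp3 RNA and little ribosomal protein RNA were taken from 6 libraries of 10x Genomics 5' single-cell RNA sequencing, 1 library per mouse. A cell was a member if it held at least 200 genes, at most 12000 UMIs, at most 5% of UMIs from mitochondrial genes, under 10% of UMIs from ribosomal protein genes and at least 1 UMI of Foxp3, with no UMI of C1qa, C1qb, C1qc or Cd79a. UMIs count captured RNA molecules, each tagged once before amplification. The rule found 349 members among 38073 called cells, of which 29738 passed the limits on genes, UMIs and mitochondrial UMIs. They were compared with 2244 Foxp3+ cells of at least 10% ribosomal UMIs, called high here, and with 5671 Foxp3- cells under 10%, called low like the members.

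The mice were unimmunized C57BL6/J animals by the labels, 3 with and 3 without H2-O (H2-O WT and H2-O KO, or WT and KO). The labels give an age of 8 weeks, and the methods of the study give another age for the sequenced mice. H2-O is a nonclassical MHC class II molecule that binds H2-M, the chaperone by which MHC class II molecules are loaded with peptides. The cells had been sorted from spleen as CD3+ CD4+ cells without B cell and NK1.1 markers. From H2-O KO mice 1 to 3 came 19, 26 and 83 members, and from H2-O WT mice 1 to 3 came 57, 69 and 95.

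Foxp3 is the transcription factor that specifies regulatory T cells (Tregs), CD4 T cells that restrain other T cells through the capture of IL-2, through CTLA-4 and through cytokines. Ribosomal protein mRNAs are short, abundant and cytoplasmic. Most of them begin with a 5' terminal oligopyrimidine (TOP) tract, by which the cell regulates their translation and storage together.

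The members were poor in RNA and richer in mitochondrial RNA than the high Foxp3+ cells. Their median cell held 1762 UMIs from 1106 genes, with 3.49% mitochondrial and 5.26% ribosomal UMIs. The median high Foxp3+ cell held 4686.5 UMIs from 1905.5 genes, with 1.86% mitochondrial and 23.9% ribosomal UMIs. The median low Foxp3- cell, at 1618 UMIs, 3.66% mitochondrial and 5.56% ribosomal UMIs, was close to the members. Of the members, 38 held more than 3000 UMIs. The sums of counts tested below rest on between 49866 and 189538 UMIs of members per library. Doublets were limited only by the maximum of UMIs.

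The members were chosen by their Foxp3 UMIs and their ribosomal share, so these values are given without a test. Most members, 237 of 349, held 1 UMI of Foxp3, 71 held 2 and 41 held more, up to 8. The ribosomal share of Foxp3+ cells had 2 humps when the libraries were pooled, with the limit of 10% in the dip between them. By library the dip lay elsewhere in some. H2-O WT replicate 3, which gave the most members, had its fewest cells between the humps from 12 to 14% (9 cells, beside 26 from 8 to 10%), and a limit of 7% left 46 of its 95 members. H2-O KO replicate 1 had its dip from 4 to 6%, with 0 cells, and H2-O KO replicate 2, with 2 to 7 cells in each step under 12%, had no clear lower hump. Just inside the limit, the 47 Foxp3+ cells of 8 to 10% had a median of 1619 UMIs and 3.41% mitochondrial UMIs. Just outside it, the 53 cells of 10 to 12% had a median of 3557 UMIs and 2.07% mitochondrial UMIs. Levels are given as CPM, the UMIs per 1000000 UMIs of the genes that the rule did not use. Tmsb4x, which encodes an actin-binding peptide, stood at 3649 CPM inside and 8512 outside, while Ikzf2 stood at 1026 and 1082.

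**Figure D1:**
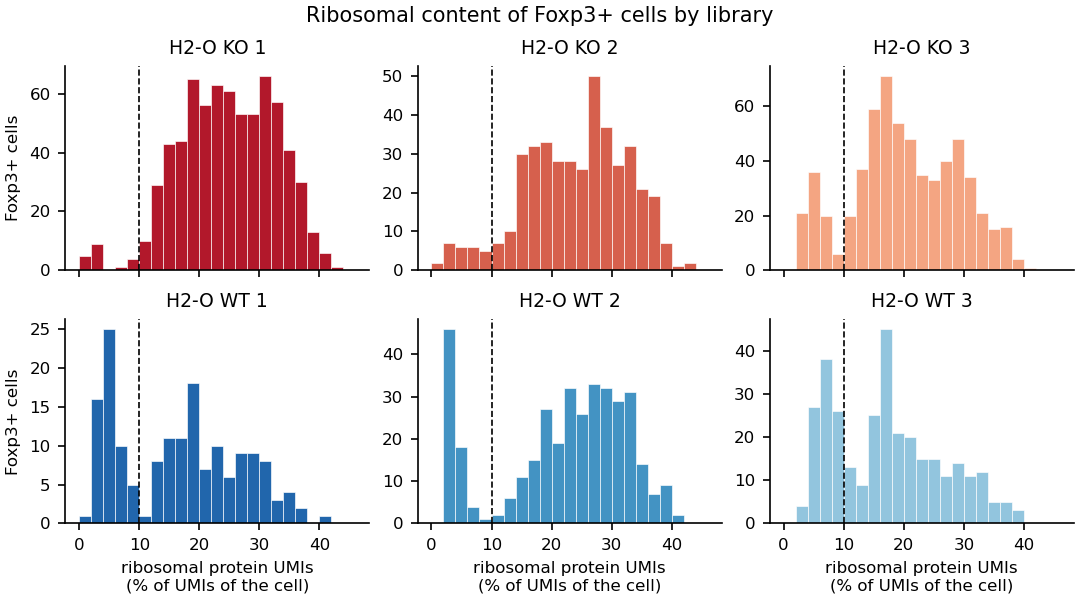
Number of Foxp3+ cells (vertical axis) by the percentage of their UMIs from ribosomal protein genes (horizontal axis, in steps of 2 percentage points) in each library. The dashed line marks the limit of 10%; the 349 members lie to its left, from 19 in H2-O KO replicate 1 to 95 in H2-O WT replicate 3.

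The genes left out of levels and tests were 115, namely 97 genes of the ribosomal protein pattern, 13 mitochondrial genes, Foxp3 and the 4 genes of the gate. In summed counts, fewer cells with an RNA and less of it per cell cannot be told apart.

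The label of Treg was checked first. Ikzf2 (ENSMUSG00000025997, chromosome 1 from 69531214 to 69687245 in GRCm38) encodes Helios, a factor of stable Tregs. It stood at 1939, 1437 and 1683 CPM in KO members, replicates 1 to 3, and at 1816, 1090 and 732 in WT members. In low Foxp3- cells of the same libraries it stood at 214, 242, 183, 204, 161 and 237. No member sum overlapped the Foxp3- sums. Il2ra (ENSMUSG00000026770, chromosome 2 from 11642807 to 11693193) encodes CD25, the chain that gives the IL-2 receptor its high affinity. It stood at 581.7, 304 and 430 CPM in KO members and at 602, 524 and 490 in WT members, against 53.3 to 82.9 in low Foxp3- cells. Ctla4 averaged 940 ± 431 CPM (SD, n = 6 libraries) in members and 189 ± 55.8 in low Foxp3- cells. T cell genes were present, with Cd3e at 606 ± 265 and Cd4 at 390 ± 99.8 CPM in members.

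Genes of other cells were scarce. Of 12 macrophage genes outside the gate, 7 were at 0 in all members, among them Adgre1, Csf1r and Lyz2. The list summed to 172, 440 and 206 CPM in KO members and to 201, 117 and 112 in WT members, and 110 of its 119 UMIs came from Ctss, a lysosomal protease gene. Of 12 B cell genes, Ms4a1 and Bank1 were among those at 0, and 148 of the list's 219 UMIs came from Ighm. The B cell list summed to 689, 473 and 363 CPM in KO members and to 290, 166 and 313 in WT members. The high Foxp3+ cells held more of it, 776 to 1002 CPM. The 5 dendritic and 7 erythroid or platelet genes had no UMI among the members, the 7 NK or NKT genes had 18 UMIs, and the 2 CD8 genes had 11, all of Cd8b1. The gate itself removed 3 low Foxp3+ cells. Of 740 barcodes called in more than 1 library, 24 belonged to members.

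Foxp3 detection depends on depth, so cells were also thinned to 1000 UMIs each, leaving out shallower ones. These UMIs include ribosomal ones, so cells of at least 10% ribosomal UMIs kept fewer UMIs of other genes. Among low cells 4.21% then held a Foxp3 UMI, and among cells of at least 10% ribosomal UMIs 4.22% did. Without thinning these were 5.80% and 9.72%, at median depths of 1626 and 4817 UMIs. In the 93 thinned cells with at least 3 UMIs of C1qa, C1qb, C1qc or Cd79a and none of the T cell receptor complex, which should lack Foxp3, 3 cells or 3.23% held a Foxp3 UMI (exact 95% binomial interval 0.670 to 9.14%, covering counting error only), and the median depth before thinning was 1863 UMIs. The share of low cells with a thinned Foxp3 UMI lay inside that interval, which is too wide to show whether it was above the background. Without thinning, 2.76% of 145 cells that should lack Foxp3 held a Foxp3 UMI. Identity rests on the other Treg genes, which the rule did not use.

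Members were next set against low Foxp3- cells of the same libraries, a comparison in which both sides were equally poor in ribosomal RNA. Counts were summed per library and tested with edgeR's quasi-likelihood test with library as a block, and a gene was called at a Benjamini-Hochberg adjusted p under 0.05. Of 6780 genes tested, 395 rose in members, 5.83% of those tested, and 224 fell, 3.3% of those tested, 454 of the 619 with the same sign in every library. Of the 20 Treg identity genes, 19 were tested and all 19 rose, with a median log2 fold change of 2.19 against -0.01 over all genes tested. The list holds the 5 genes by which the cells were labelled beside Foxp3, whose values are therefore a description. Depth and genes of other kinds moved with this contrast as well. Cells over 3000 UMIs were 10.9% of members and 2.50% of low Foxp3- cells. Of 20 abundant cytoplasmic mRNAs 7 rose and none fell, of 7 tested cycling genes 3 rose, and of 8 RNAs listed as nuclear 2 fell. Ighm, a B cell gene and the only 1 of 3 tested to be called, rose by 0.82 ± 0.17, from 132 ± 35.8 CPM in low Foxp3- cells to 256 ± 128 in members. In cells of at most 3000 UMIs, an alternative added after the data were seen, 418 genes were called, 374 of them among the 619. The part of the genes of other kinds in the calls was not tested.

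Large rises reached beyond that list. Neb (chromosome 2 from 52136647 to 52378474), which encodes the muscle filament protein nebulin, averaged 170 ± 136 CPM in members and 12.8 ± 11.3 in Foxp3- cells (log2 fold change 3.59 ± 0.33, SE). Lrrc32, which encodes GARP, the surface anchor of latent TGF-beta, rose by 2.95 ± 0.35 on the log2 scale, and Itgb8, the integrin chain that releases TGF-beta from it, rose by 2.68 ± 0.36. Flicr, a noncoding RNA whose annotated span overlaps that of Foxp3, rose by 3.49 ± 0.44. Reads of overlapping transcripts can be split between genes, and members were chosen by Foxp3 UMIs, so this rise is a description. The laminin gene Lamc1 rose by 3.13 ± 0.47, Coro2a by 2.83 ± 0.23 and Adap1 by 2.78 ± 0.44.

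Of the 25 effector Treg genes, 23 were tested and 19 rose, none falling, beside 5.83% and 3.3% of all genes tested. The low-count filter passes a sparse gene more readily when it is high in members, which limits this count and that of the identity list. Il1rl1, the receptor of the alarmin IL-33, rose by 4.43 ± 0.93, Klrg1, a marker of late effector Tregs, by 4.47 ± 0.66, and the protease gene Gzmb by 2.75 ± 0.80. These 3 were sparse. Klrg1 was found in 5.97% of members and 0.321% of low Foxp3- cells (means of 6 libraries). Klrg1 stood at 625, 33.8 and 66.6 CPM in KO members and at 55.7, 33.3 and 0 in WT members, and 16 of its 29 UMIs in H2-O KO replicate 1 came from 1 cell. The IL-2 response gene Cish rose by 2.31 ± 0.24 and the receptor chain Il2rb by 2.09 ± 0.13. These 2 and Il2ra were the 3 of 10 tested genes of the IL-2 list that rose, while Jak1 fell by 0.34 on the log2 scale, a call lost in 12 of 20 alternatives.

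Of 15 resting T cell genes tested, 9 fell in members and none rose, beside 3.3% and 5.83% of all genes tested. Tcf7, a factor of naive and memory T cells, averaged 410 ± 197 CPM in members and 1022 ± 171 in low Foxp3- cells (-1.19 ± 0.16 on the log2 scale), and its partner Lef1 averaged 583 ± 225 and 1238 ± 173 (-1.09 ± 0.13). Satb1, a chromatin organizer, fell by 1.11 and Igfbp4 fell by 1.50 on the log2 scale. Of 24 tested genes of T cell receptor signaling and the immediate-early response, 10 rose and none fell, beside 5.83% and 3.3% of all genes tested. The other 14 were not called. Those that rose included Fosb (1.16 ± 0.16), Egr1 (1.01 ± 0.17), Zfp36 (0.95 ± 0.15) and Nr4a2 (0.91 ± 0.19). None of 10 heat shock genes was called by edgeR, none having an unadjusted p under 0.05. The largest falls by the rule for named genes were in Rapgef4, Mctp2, Pde3b, Maml2, Tdrp, Gpr18, Ccl5 and Sema4a, from -2.20 to -1.72 on the log2 scale. Without H2-O KO replicate 3, 404 genes were called in place of 619.

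The members also differed from Foxp3+ cells of high ribosomal content. The rule set this contrast through the ribosomal genes, which were left out of the counts tested, so the calls describe what went with that choice. Among the label's genes, Ikzf2 averaged 1450 ± 463 CPM in members and 646 ± 59.9 in high Foxp3+ cells, higher in 6 of 6 libraries. The level also varied with the ribosomal share within each class. Within libraries, Ikzf2 stood at 1224, 1128 and 919 CPM in KO mice and at 1334, 1490 and 1115 in WT mice in high Foxp3+ cells of 10 to 15% ribosomal UMIs, and at 423 to 528 in those of 20% and more, lower in 6 of 6 libraries. In members of 5 to 10% it stood at 1572, 1193, 1354, 1413, 1620 and 619 CPM in the same order of libraries, from 5 to 82 cells each. These overlapped the values of the cells of 10 to 15%, being higher in 5 of 6 libraries and lower in H2-O WT replicate 3, which gave the most cells. Members under 5% stood at 998 to 2177 CPM, above those of 5 to 10% in 5 of 6 libraries, with H2-O WT replicate 2 the other way. For Nt5e and Itgav the ranges of members of 5 to 10% and high cells of 10 to 15% overlapped as well, at 0 to 377 against 149 to 262 CPM and at 168 to 371 against 205 to 480. Il2ra had another order among high cells, being higher at 20% and more than at 10 to 15% in the 3 KO libraries and lower in the 3 WT libraries. Nt5e, which encodes the ectoenzyme CD73, averaged 283 ± 108 and 106 ± 10.6, higher in 6 of 6. Itgav, the alpha V integrin chain, averaged 356 ± 89.4 and 186 ± 11.4, higher in 6 of 6, and Il2ra averaged 489 ± 110 and 250.5 ± 77.6, higher in 5 of 6. Nrp1 (chromosome 8 from 128358604 to 128503363), a co-receptor of thymic Tregs, averaged 296 ± 99.0 and 151 ± 9.02, higher in 6 of 6. Depth moved with these values. In cells of at most 3000 UMIs, an alternative added after the data were seen, the log2 difference was 0.59 for Ikzf2, 0.96 for Itgav, 0.60 for Nt5e, 0.47 for Il2ra and -0.046 for Nrp1, against 0.86, 0.66, 1.05, 0.78 and 0.65 over all cells.

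**Figure D2:**
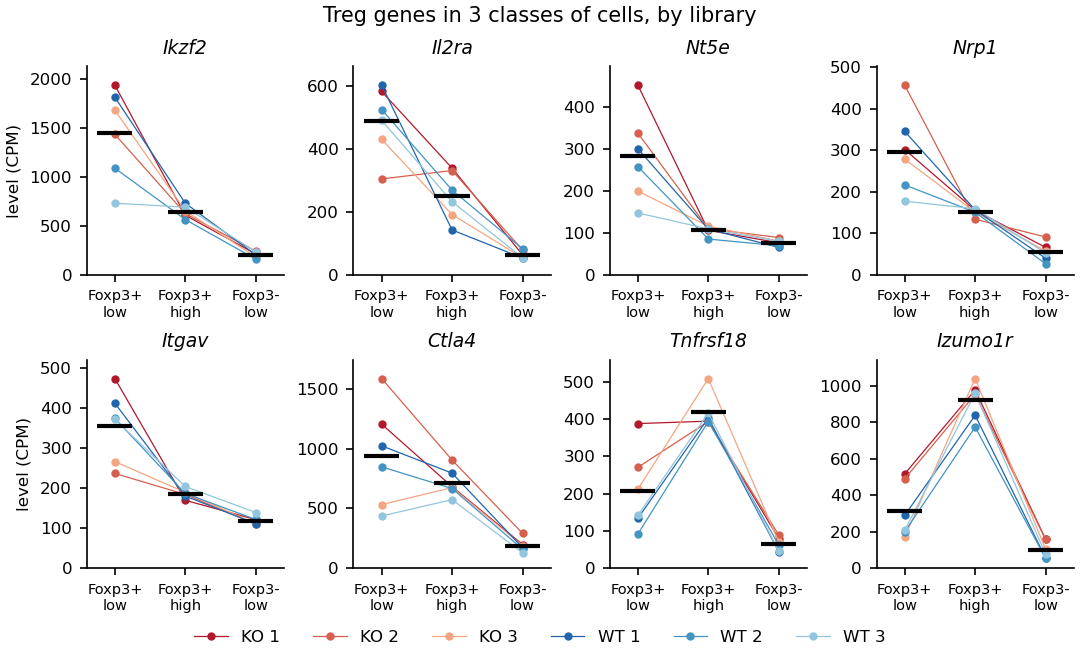
Levels of 8 Treg genes in CPM, over genes outside the rule (vertical axis) in members (Foxp3+ low), high Foxp3+ cells and low Foxp3- cells; each line joins the 3 values of a library and black bars are means over 6 libraries. Ikzf2 averaged 1450, 646 and 207 in these classes, while Izumo1r averaged 312, 924 and 101, highest in the high Foxp3+ cells.

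Other genes of the same Treg list lay the opposite way. Tnfrsf4, which encodes the costimulatory receptor OX40, stood at 474, 355 and 127 CPM in KO members and at 123, 191 and 236 in WT members, against 545 to 917 in high Foxp3+ cells. The ranges did not overlap, and the fitted difference was -1.82 ± 0.24 on the log2 scale (adjusted p = 7.03e-07). Tnfrsf18, which encodes its relative GITR, fell by 1.43, Izumo1r, the folate receptor 4 gene of Tregs, fell by 1.96, the actin-capping gene Capg fell by 2.09 and the inhibitory receptor gene Tigit fell by 1.16. In all, 6 of the 20 genes rose, beside a background of 23.5% of the 7121 genes tested, and 5 fell, beside 25.7%. The 6 were Ikzf2, Il2ra, Itgav, Nrp1, Nt5e and Swap70, a list given after its values were seen. Ctla4, at 940 ± 431 CPM in members and 717 ± 116 in high Foxp3+ cells, did not pass the test, nor did Lrrc32 at 103 ± 43.6 and 83.3 ± 14.2. Of all 3508 called genes, 2395 had the same sign in all 6 libraries.

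Shares of cells lay the same way after thinning to 1000 UMIs, which left out 25 members, 26 high Foxp3+ cells and 650 low Foxp3- cells. The thinned UMIs include ribosomal ones, so high Foxp3+ cells kept fewer UMIs of other genes than members did. Ikzf2 was then found in 49.8% ± 10.0 of members (SD, n = 6 libraries), 32.4% ± 4.10 of high Foxp3+ cells and 9.47% ± 0.557 of low Foxp3- cells, and without thinning in 63.3%, 63.0% and 12.5%. Izumo1r was found in 16% ± 3.18, 39.4% ± 4.26 and 6.44% ± 1.89, and without thinning in 29.3%, 69.3% and 10.2%. The low Foxp3- shares stand for the level in cells that mostly lack these genes.

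Effector Treg genes either fell in members or did not pass. Of 25 tested, 10 fell and none rose, beside 25.7% and 23.5% of all genes tested. S100a4 fell by 3.41, Lgals1, which encodes galectin-1, fell by 2.54, S100a6 fell by 2.33 and Ebi3, a chain of IL-35, fell by 2.00 on the log2 scale. Klrg1, at 136 ± 241 CPM in members and 120 ± 29.9 in high Foxp3+ cells, did not pass. Of 15 resting T cell genes 5 rose and 7 fell, beside the same shares. The rises were led by Bach2, a repressor that keeps T cells quiescent (440 ± 217 against 143 ± 37.4 CPM, log2 difference 1.43 ± 0.22), and the falls by Ly6c1 (-2.04 ± 0.30), Igfbp4 (-1.79 ± 0.25) and Dapl1 (-1.52 ± 0.35). Igfbp4 did not hold its direction, at 0.022 in cells of at most 3000 UMIs. With a ribosomal limit of 15% the differences of S100a4 (0.44), Lgals1 (0.12), S100a6 (0.68), Capg (0.045) and Tigit (0.66) also lay above 0, with an adjusted p of 0.0245 for Tigit and 0.0491 for S100a6 by edgeR.

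Of 17 genes of the T cell receptor complex and its proximal signaling, 10 fell and 4 rose, beside 25.7% and 23.5% of all genes tested, so the share that rose was that of all genes. Cd3d stood at 366, 541 and 333 CPM in KO members and at 223, 117 and 295 in WT members, below the 1081 to 1333 of high Foxp3+ cells in every library (-2.27 ± 0.21). Trbc2 fell by 1.90, Cd3g fell by 1.81 and Trbc1 fell by 1.52. Those that rose included Ptprc, Cd6 and Cd28, named after their values were seen. Of 25 tested immediate-early and receptor signal genes, 13 fell, led by Nfkbia (-1.25 ± 0.17), Ier2 (-1.24 ± 0.18), and 6 rose, again near the share of all genes, led by Fosb (1.29 ± 0.19) and Fosl2 (1.20 ± 0.30). Of 10 tested heat shock genes 7 fell, with Hspe1 at -2.42 ± 0.24, Dnajb1 at -1.51 ± 0.22, Hspa1b at -1.44 ± 0.38 (0.76 with a ribosomal limit of 15%) and Hsp90ab1 at -1.33 ± 0.18.

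Of 14 tested integrin and adhesion genes, 6 rose and 3 fell, beside 23.5% and 25.7% of all genes tested. Itgb3, a partner of alpha V, averaged 93.9 ± 20.3 CPM in members and 34.1 ± 5.25 in high Foxp3+ cells (1.20 ± 0.25), Itga6 rose by 0.95 ± 0.17, Itga4 by 0.94 ± 0.17 and Itgb8 by 0.77 ± 0.31, a call lost in 12 of 20 alternatives. Of 12 tested ubiquitin ligases and negative regulators, 4 rose and 2 fell, near those shares. Cblb (chromosome 16 from 52031225 to 52208048), a ligase that raises the threshold of T cell activation, stood at 431, 625 and 629 CPM in KO members and at 758, 1190 and 945 in WT members, against 192 to 259 in high Foxp3+ cells (1.49 ± 0.19). Nedd4l rose by 1.59 ± 0.35 and Itch by 0.84 ± 0.22. In the IL-2 list, 2 of 11 tested genes rose and 4 fell, also near them. Those that fell included the feedback inhibitors Socs1 (-1.22 ± 0.27) and Socs3 (-0.98 ± 0.25) and the kinase gene Jak3 (-0.92 ± 0.23).

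Of 8 tested RNAs listed as nuclear, 7 rose in members and none fell, beside 23.5% and 25.7% of all genes tested. Malat1 (chromosome 19 from 5795690 to 5802672) stood at 23225, 30700 and 28573 CPM in KO members and at 51416, 54872 and 40561 in WT members, against 9984 to 13168 in high Foxp3+ cells. Every member sum lay above every high sum. Kcnq1ot1, the imprinted antisense RNA of Kcnq1, averaged 362 ± 147 and 66.6 ± 4.51 (2.13 ± 0.20), Tug1 rose by 1.66 ± 0.25, and the unnamed noncoding genes Gm16565 and Gm26917 rose by 2.62 ± 0.23 and 2.48 ± 0.27. Whether Gm16565 and Gm26917 stay in the nucleus was not tested. Without a stated strand setting, Kcnq1ot1 and the gene it overlaps cannot be told apart. The largest other rises by the rule for named genes were in Clspn (2.98 ± 0.60), a replication checkpoint gene, Zbtb37, Slc35f6, Acsl3, Mpp7, AU020206 and Rapgef2, the last at 1.99 ± 0.34.

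The cytoplasmic end of the scale moved down as a block. All 20 abundant cytoplasmic mRNAs fell, beside 25.7% of all genes tested, with a median of -2.26 on the log2 scale against 0.05 over all genes. Tmsb4x (chromosome X from 167207093 to 167209315) stood at 1788, 2789 and 1356 CPM in KO members and at 1493, 641 and 1547 in WT members, against 9073 to 10725 in high Foxp3+ cells (-2.94 ± 0.21). The membrane glycoprotein gene Cd52 fell by 3.07, S100a10 fell by 3.02 and Atp5e, a subunit of ATP synthase, fell by 3.52. The largest falls by the rule for named genes, from -3.80 to -3.41, were in the chemokine gene Ccl5, Mrpl54, Dpm3, Fmc1, Cox7b, Pin4, Atp5e and S100a4, several of which encode small mitochondrial proteins. B cell transcripts fell too, with Ighm at -1.65 ± 0.21, Cd74 at -1.94 ± 0.27 and Igkc at -1.70 ± 0.54, as did Ctss at -0.79 ± 0.21. With a ribosomal limit of 15% Ccl5 (0.59), Cd74 (0.13) and Igkc (1.16) lay above 0 instead, with an adjusted p of 0.0287 for Igkc by edgeR.

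All 23 TOP mRNAs that the rule had not used also fell, beside 25.7% of all genes tested, with a median of -2.23. They include ribosomal proteins that the gene pattern misses, such as Fau and Rplp0, so this fall lies close to the choice of the cells and is a description. Fau stood at 1573, 1657 and 1277 CPM in KO members and at 1170, 641 and 1771 in WT members, against 7680 to 9243 in high Foxp3+ cells. Rack1, a ribosome-bound scaffold, averaged 456 ± 208 and 1835 ± 385 CPM in members and high Foxp3+ cells and Tpt1 averaged 1452 ± 353 and 7377 ± 1136 CPM. Naca, of the nascent polypeptide complex, fell as well. Start sites of these 4 genes, from RefSeq on GRCm38.p6, are shown to let the tract be seen, 15 bases before and 15 bases from the annotated start, 5' to 3', with the longest run of at least 6 C or T in capitals, counted from a C that lies between 5 bases before and 10 bases after the start. All are on the plus strand.
Fau, chr19:6057932-6057961: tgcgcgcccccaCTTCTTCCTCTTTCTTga
Rack1, chr11:48800345-48800374: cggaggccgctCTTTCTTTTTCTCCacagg
Tpt1, chr14:75845241-75845270: gtcaccgctgacgacagttccgggggagcc
Naca, chr10:128035331-128035360: gcaactcgttctcttaaagaggaaacccgg
Counted so, Fau and Rack1 hold runs of 16 and 14 bases, the tract of Rack1 reaching further upstream, and Tpt1 and Naca hold none of that length. Such a run, on the strand of the gene, was found in 6 of the 15 TOP genes with a window (40%), and in 15.2% of 27025 genes. Among the genes tested it was found in 16% of those lower in members and in 16% of those higher. A match describes these letters only.

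Transcript length ordered the difference across all genes. Genes that fell in members had a median longest annotated transcript of 1.87 kb, all genes tested had 3.60 kb, and genes that rose had 5.64 kb. Of the 274 protein-coding genes under 1 kb, 95.6% fell and none rose, and their median log2 difference was -2.25. Of the 486 genes over 8 kb, 72.0% rose and 1.65% fell, and the median was 0.90. Between these ends the median rose at every step of length. Genomic span and exon number separated the genes too. Genes that rose spanned a median of 66.3 kb with 14 exons, all genes tested 26.9 kb with 9, and genes that fell 9.51 kb with 5. Whether intronic reads were counted is not given in the sources used here, and their part in these values and in those of the nuclear RNAs was not tested. The called Treg genes lay along the same order. Those that rose, Ikzf2, Il2ra, Itgav, Nrp1, Nt5e and Swap70, spanned 44.9 to 156 kb, while those that fell, Tnfrsf4, Tnfrsf18, Izumo1r, Capg and Tigit, spanned 2.73 to 18.6 kb, without overlap. The 9 genes of the list that were not called include Itgae at 56.9 kb and Lrrc32 at 12.9 kb, which lie within these 2 ranges. The order is across genes, which are not independent replicates. The mitochondrial share and depth of the classes, given above, moved with this result too.

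**Figure D3:**
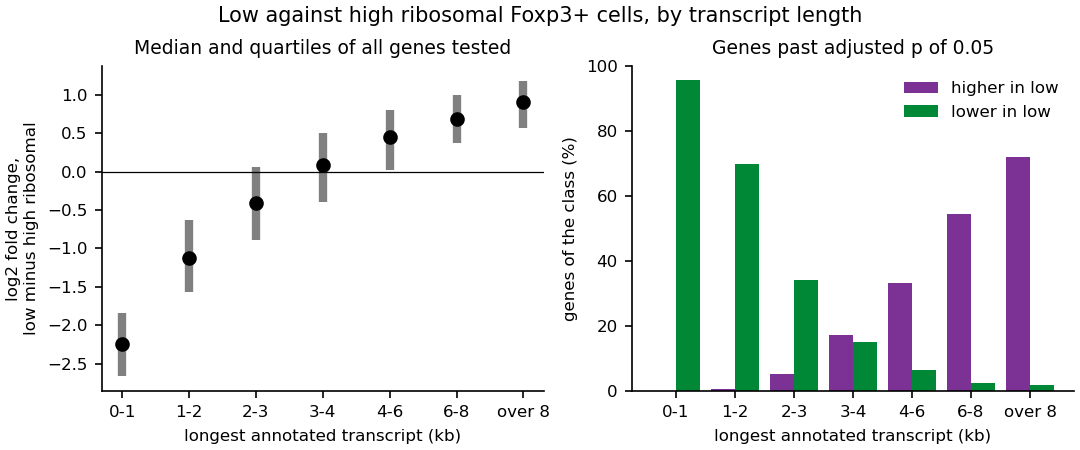
Left, log2 fold change of members against high Foxp3+ cells (dots are medians and bars span the quartiles of genes) by length of the longest annotated transcript in kb; right, percentage of genes in each class of length that rose or fell at adjusted p under 0.05. The median runs from -2.25 under 1 kb to 0.90 over 8 kb.

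The same contrast of low and high cells was then compared between Foxp3+ and Foxp3- cells through an interaction term. By edgeR 0 of 10361 genes were called, 0% in either direction, with 802 at an unadjusted p under 0.05, and DESeq2 called 5, leaving 9842 genes without an adjusted p. A fit with library and ribosomal class as 1 block, added after the data were seen, called 17 of 10794 genes, so whether any gene passed depended on the fit. Fau stood at 1348 ± 415 CPM in members and 1208 ± 323 in low Foxp3- cells, and at 8523 ± 589 and 10464 ± 775 in the high classes. Malat1 stood at 38224 ± 12895 and 45519 ± 8974 in the low classes and at 11488 ± 1418 and 12004 ± 955 in the high ones. Ikzf2 stood at 66.8 ± 25 in high Foxp3- cells, so it was higher in the low class of either kind. The median interaction of the 20 Treg identity genes was -0.59 on the log2 scale, beside -0.05 over all genes, and 12 of the 20 had an unadjusted p under 0.05.

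At the limits of the rule, members took a smaller part of Foxp3+ cells in every H2-O KO library than in any H2-O WT library. They were 2.68%, 6.25% and 13.4% of Foxp3+ cells among the KO mice, against 34.5%, 19.0% and 29.8% among the WT mice (7.44% ± 5.47 against 27.8% ± 7.99, SD, n = 3 mice each, exact two-sided permutation p = 0.1, the smallest that 3 against 3 can give). As a part of all kept cells they were 0.760% ± 0.562 in KO and 1.90% ± 0.388 in WT mice (exact permutation p = 0.1, n = 3 each). That difference of -1.14 percentage points was -0.349 with a mitochondrial limit of 3% (exact permutation p = 0.4), where the genotypes overlapped, and they also overlapped with ribosomal limits of 7% (-0.799, p = 0.2) and 15% (-0.691, p = 0.2). Foxp3- cells lay the same way. Low cells were 3.47%, 8.46% and 17.5% of Foxp3- cells among the KO mice, against 49.4%, 22.7% and 48.2% among the WT mice (exact permutation p = 0.1, n = 3 each). Called cells over the mitochondrial limit, which were left out, were 5.37%, 7.27% and 32.2% of the KO libraries and 35.1%, 13.0% and 30.4% of the WT libraries. With a mitochondrial limit of 3% the genotypes overlapped, at 1.40%, 3.51% and 7.63% of Foxp3+ cells in KO and 16%, 5.08% and 8.44% in WT mice, a difference of -5.66 in place of -20.3 percentage points (exact permutation p = 0.2, n = 3 each). With a limit of 10% the difference was -27.4 points. The genotypes also overlapped with a ribosomal limit of 15%, where H2-O KO replicate 3 stood at 26.5% and H2-O WT replicate 2 at 22.0% (difference -18.3 points, exact permutation p = 0.2, n = 3 each).

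Within libraries, with every cell thinned to 1000 UMIs, low cells were 24.3% ± 17.2 of Foxp3+ and 23.3% ± 19.3 of Foxp3- cells (n = 6 libraries), a difference of 1.00 percentage points that was higher in 5 of 6 libraries (exact two-sided sign-flip permutation p = 0.719). The sign was opposite without H2-O KO replicate 3 (-0.045 points) and without thinning (-7.33 points, exact permutation p = 0.03125, the smallest for 6 libraries). No difference in low ribosomal content between Foxp3+ and Foxp3- cells was thus shown at equal depth.

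**Figure D4:**
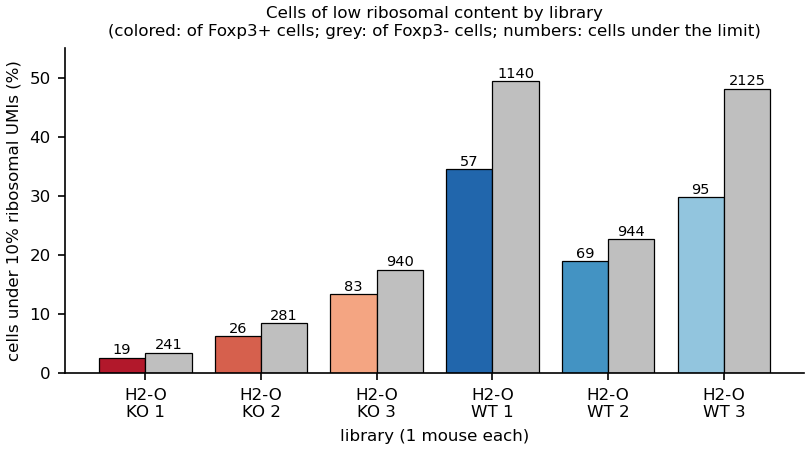
Percentage of cells under 10% ribosomal UMIs (vertical axis) among Foxp3+ cells (colored bars) and Foxp3- cells (grey bars) in each library, 1 bar per library and class without error bars, with the number of low cells above each bar. All 3 H2-O KO libraries lie below all 3 H2-O WT libraries in both kinds of cells.

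Genotype was not part of the rule, so KO and WT members were compared by edgeR's quasi-likelihood test over 3 mice each. Of 2657 genes that passed the low-count filter, 123 were higher in H2-O KO (4.63%) and 53 were lower (1.99%), and 170 of the 176 separated the genotypes. The integrin chain genes Itgb1 and Itgb7 were among them. Itgb1 (chromosome 8 from 128685654 to 128733200) stood at 625, 710 and 684 CPM in KO members and at 279, 200 and 213 in WT members (1.56 ± 0.24, adjusted p = 0.000737). Itgb7 (chromosome 15 from 102215995 to 102231944) stood at 991, 727 and 805 in KO members and at 267, 358 and 331 in WT members (1.35 ± 0.22, adjusted p = 0.00124). Vim (chromosome 2 from 13573927 to 13582826), which encodes the filament protein vimentin, stood at 1120, 1352 and 726 CPM in KO members and at 234, 133 and 230 in WT members (2.33 ± 0.28). The genotypes did not overlap in these 3 genes. Low Foxp3- cells of the same mice stood the same way, with Vim at 347 ± 33.0 in KO and 132 ± 21 in WT mice and Itgb1 at 535 ± 114 and 165 ± 22.7. By share of cells with a UMI, the genotypes overlapped in high Foxp3+ cells. There Itgb1 was found in 34.0%, 35.9% and 42.9% of cells in KO and 46.3%, 37.6% and 51.8% in WT mice. For Vim these shares were 66.4%, 61.3% and 66.6% against 66.7%, 68.8% and 62.1%.

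Effector and identity genes were among those higher in KO members. The low-count filter passes a sparse gene more readily when it is high in 1 genotype, so counts over the genes that passed give no direction for a list. Of 25 effector Treg genes, 10 passed the filter and 6 were called, all higher, beside 4.63% of all genes tested that were higher. Icos, a costimulatory receptor, was at 776, 355 and 284 CPM in KO members and at 212, 150 and 82.7 in WT members (1.59 ± 0.36), Lgals1 was at 366, 254 and 212 against 55.7, 16.6 and 76.8 (2.26 ± 0.42) from 17, 15 and 35 UMIs against 5, 2 and 13, and Itgb1, S100a6, Maf and Tnfrsf1b were the others. Of 20 Treg identity genes, 15 passed the filter and 4 were higher, beside the same 4.63%. They were Tnfrsf18 (1.09 ± 0.32), Capg (1.89 ± 0.42), Tigit (1.50 ± 0.38) and Itgae, the gene of CD103 (2.93 ± 0.62). The call of Tnfrsf18 was lost in 11 of 19 alternatives. Ikzf2 averaged 1686 ± 251 and 1213 ± 552 and Il2ra averaged 439 ± 139 and 539 ± 57.1, and neither passed.

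Of 15 resting genes, 12 passed the filter and 3 were lower, beside 1.99% of all genes tested. They were Lef1 (388, 406 and 357 CPM in KO members, 836, 824 and 685 CPM in WT members, -1.05 ± 0.22), Satb1 (-1.06 ± 0.26) and Foxp1 (-0.90 ± 0.23). Among receptor genes, Cd3e (0.98 ± 0.23), Cd3g (1.01 ± 0.27) and Zap70 (1.03 ± 0.29) were higher, though the call was lost in 11 of 19 alternatives for Zap70 and in 9 of 21 for Cd3g, as it was in 10 of 21 for Foxp1. Jun was lower (-1.03 ± 0.23), and Dusp1 (1.05 ± 0.24) and Nfkbia (0.87 ± 0.21) were higher. The largest falls by the rule for named genes were in Pik3ip1, a brake on PI3 kinase (0, 0 and 48.4 against 167, 150 and 136 CPM), Gprasp1, Scml4, Sipa1l1, Rras2, Thoc7, Plcxd2 and Thada. The largest rises by that rule were in Mki67, S100a6, Itgae, Cdc25b, Ly6a, Myo1f, Areg and Vim. Of 20 abundant cytoplasmic mRNAs 6 were higher, beside 4.63% of all genes tested, among them Actb (1.25 ± 0.30) and S100a10 (1.36 ± 0.41). The call was lost in 14 of 21 alternatives for S100a10, in 12 of 16 for Thoc7 and in 6 of 12 for Gprasp1.

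Single cells carried some of these sums. Mki67, the Ki-67 gene of cycling cells, stood at 1077, 135 and 327 CPM in KO members and at 55.7, 25 and 11.8 in WT members (4.02 ± 0.62), but 43 of its 50 UMIs in H2-O KO replicate 1 came from 1 cell. S100a6 stood at 1228, 710 and 103 against 100, 25 and 47.2 (3.34 ± 0.65), and 45 of 57 UMIs in H2-O KO replicate 1 and 25 of 42 in replicate 2 came from 1 cell each. For Vim, 24 of 52 UMIs in H2-O KO replicate 1, 31 of 80 in replicate 2 and 21 of 120 in replicate 3 did so. Members with a UMI of Mki67 or Top2a were 10.5%, 15.4% and 12% in the KO libraries, against 8.77%, 8.70% and 7.37% in the WT libraries, from 2, 4 and 10 and from 5, 6 and 7 cells. Itgae rested on 7, 18 and 19 UMIs in the KO libraries and on 5, 0 and 3 in the WT libraries.

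Depth and RNA quality also moved with genotype among members. Members over 3000 UMIs were 21.1%, 30.8% and 15.7% in the KO libraries, against 7.02%, 2.90% and 7.37% in the WT libraries, and median mitochondrial shares were 3.20%, 2.97% and 3.22% against 3.79%, 3.84% and 3.80%. The part of the mitochondrial share in the differences was not tested. Genes higher in KO members had a median longest transcript of 2.54 kb and those lower 6.05 kb. In members of at most 3000 UMIs, 31 genes were called, 30 of them among the 176, with Vim at 1.76, Itgb1 at 1.34 and Itgb7 at 1.03 on the log2 scale. With a mitochondrial limit of 3% only 592 genes were tested, against 2657, and 1 was called, Vim at 2.94. DESeq2 called 78 of the 2657. Leaving out H2-O KO replicate 1 or 2 left 80 or 75 genes called, and leaving out H2-O WT replicate 1 or 2 left 70 or 108.

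**Figure D5:**
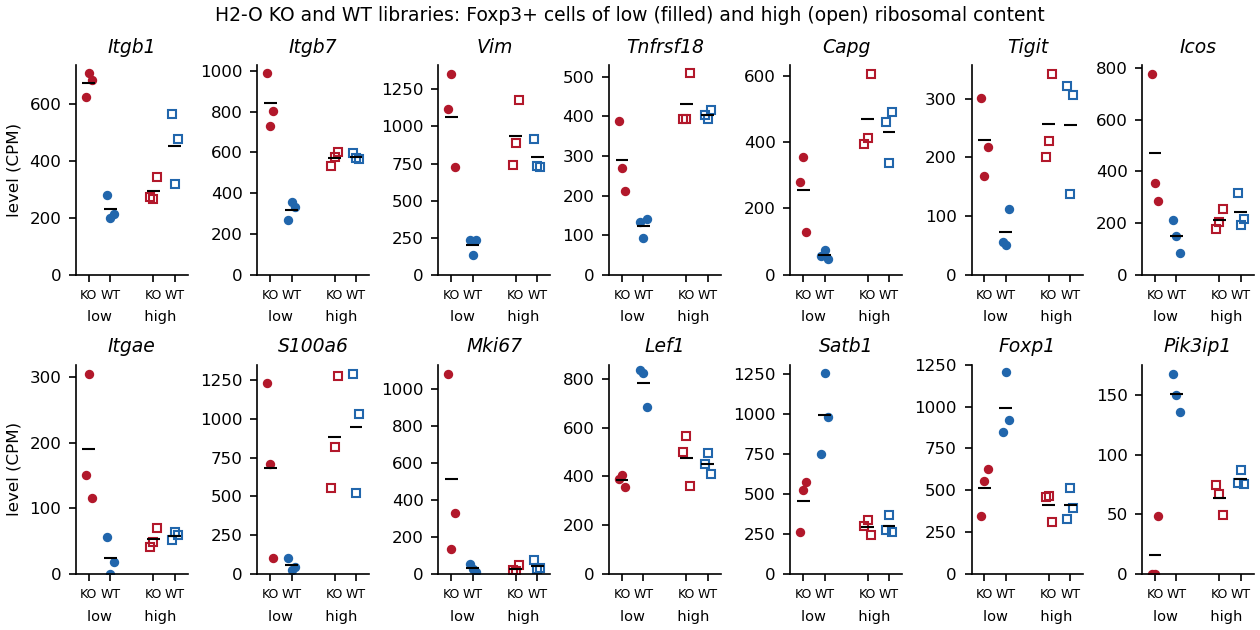
Levels of 14 genes in CPM, over genes outside the rule (vertical axes), 1 point per library and a bar at the mean of 3, in members (low, filled circles) and high Foxp3+ cells (high, open squares) of KO (red) and WT (blue) mice. Itgb1 ranges from 625 to 710 in KO members and from 200 to 279 in WT members.

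Whether the genotype difference was the same in members and in high Foxp3+ cells was tested as an interaction. Of 7121 genes 37 passed, 28 with a positive interaction (0.393%), in which the log2 difference of KO minus WT was higher in members, and 9 with a negative one (0.126%), in which it was lower. The 28 included Itgae, which stood at 52.9 ± 15.1 CPM in KO and 58.2 ± 5.76 in WT mice among high Foxp3+ cells, and 5 of 25 effector Treg genes. The cycling genes Kif11, Mki67, Stmn1 and Top2a had the largest positive interactions of the named genes, and Zfas1, Plcxd2, Ift80 and Zbtb20 the largest negative ones. In cells of at most 3000 UMIs none of 3026 genes passed in edgeR, with 156 at an unadjusted p under 0.05. The cycling genes named above and Zfas1 were not among the genes tested there. Leaving out H2-O KO replicate 1, 2 or 3 left 12, 6 or 151 genes, and leaving out H2-O WT replicate 1 or 3 left 8 or 13.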

How the data were processed

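The authors counted UMIs per gene and called cells with Cell Ranger 6.1.2 on mm10 and deposited whole-number counts without normalization, which were used as deposited. Whether intronic reads and strand were counted is not given in the sources used here. The 6 libraries held 9973193 to 40237962 UMIs, and the number of mice and members limits precision. Members were chosen by the stated rule, and the members and gene lists were chosen with earlier results of these data known. Counts without the rule's 115 genes were summed per library and class and tested with edgeR 4.0.16 under R 4.3.3 (quasi-likelihood, TMM, filterByExpr, Benjamini-Hochberg, after a test on simulated data), with DESeq2 1.42.0 as an alternative. Shares were compared by exact permutation tests. Python 3.11.15 was used for sums.

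The genes named were the Treg markers, the 8 largest rises and falls by log2 fold change (4 for interactions) among called genes of at least 50 CPM that separated the libraries or kept 1 sign, leaving out predicted gene models and receptor segments, and up to 4 called genes per list of 19. Positions and transcript lengths come from GENCODE M21 (GRCm38), with 32158 of 32285 gene identifiers found. Start sites come from RefSeq.

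Alternatives were the ribosomal limit (7% and 15%), the mitochondrial limit (3% and 10%), a minimum of 2 Foxp3 UMIs, thinning, size factors, the low-count filter, a receptor UMI, the rule's genes kept, a replicate block, each library left out and, added after the data were seen, limits on UMIs and another block. Some genes of the lists are not reported here by name.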

Additional observations from a re-analysis of the deposited data

Results flagged for a closer look

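The effect of genotype differed between members and high Foxp3+ cells for 9 named genes, by the interaction term of edgeR's quasi-likelihood test. On the log2 scale the interaction was 4.87 for Kif11, 4.36 for Mki67, 4.12 for Stmn1 and 3.76 for Top2a, all genes of the cell cycle, and 2.94 for Itgae. Kif11 stood at 215, 0 and 206 CPM in KO members and at 0, 0 and 17.7 in WT members. Top2a stood at 646, 50.7 and 484 against 22.3, 41.6 and 35.4. In high Foxp3+ cells Top2a stood at 15.9, 11.9 and 46.3 in KO mice and at 45.0, 23.4 and 39.2 in WT mice. The interaction was -4.14 for Zfas1, a noncoding host gene of small nucleolar RNAs, which stood at 21.5, 0 and 0 CPM in KO members and at 100, 41.6 and 76.8 in WT members. It was -1.87 for Plcxd2, -1.46 for Ift80 and -1.34 for Zbtb20. The calls of these 4 were lost in many alternatives, 9 of 17 for Zfas1, 10 of 19 for Plcxd2, 10 of 19 for Ift80 and 11 of 19 for Zbtb20, as was that of Kif11 in 7 of 14, that of Stmn1 in 8 of 17 and that of Itgae in 9 of 19. DESeq2 gave no adjusted p for these 9 genes or for 6626 of the 7121 genes in all. It called 26 of the rest, 16 of them among the 37 of edgeR. In H2-O KO replicate 1, 43 of the 50 UMIs of Mki67 and 19 of the 30 of Top2a came from 1 cell each, and in H2-O KO replicate 3 so did 21 of 54 and 39 of 80. In cells of at most 3000 UMIs none of 3026 genes passed this interaction test. Of the 9 named genes only 4, Itgae, Plcxd2, Ift80 and Zbtb20, were among those tested there.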

How the results depend on the processing

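The counts of called genes moved with the cell limits, and the cause was not tested. For members against high Foxp3+ cells, 3508 genes were called, against 1879 with at least 2 Foxp3 UMIs, 2268 with Foxp3 called after thinning, 2229 with a ribosomal limit of 15%, 1821 with a mitochondrial limit of 3%, 1295 in cells of 1000 to 3000 UMIs and 1338 in cells of at most 3000, and 2908 to 3562 with each library left out in turn. There Nrp1 stood at -0.076 and -0.046 and Igfbp4 at 0.042 and 0.022 in cells of 1000 to 3000 and of at most 3000 UMIs, and with the 15% limit Ccl5 stood at 0.59, S100a4 at 0.44, Tigit at 0.66, Capg at 0.045, Lgals1 at 0.12, S100a6 at 0.68, Hspa1b at 0.76, Cd74 at 0.13 and Igkc at 1.16, each opposite to its reported sign. Against low Foxp3- cells, 619 genes became 360 with thinning, 3173 with the 15% ribosomal limit and 356 with the 3% mitochondrial limit, and 404 to 557 with a library left out. The interaction of ribosomal class and Foxp3, 0 genes by edgeR, gave 5 by DESeq2, 35 with no low-count filter, 2 with at least 2 Foxp3 UMIs, 1322 with the 15% limit, 20 with the 3% mitochondrial limit, 1 in cells of 1000 to 3000 UMIs, 17 with library and ribosomal class as 1 block, and 0 to 1 with a library left out.

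Between genotypes, 176 genes became 78 by DESeq2, 23 with at least 2 Foxp3 UMIs, 108 with thinning, 1160 with the 15% ribosomal limit, 333 and 1 with mitochondrial limits of 10% and 3%, 18 in cells of 1000 to 3000 UMIs and 31 in cells of at most 3000, and 70 to 204 with a library left out. The genes tested changed too, from 2657 to 654 with at least 2 Foxp3 UMIs and 592 with the 3% mitochondrial limit. The interaction of genotype and ribosomal class, 37 genes, gave 62 with no low-count filter, 63 and 359 with ribosomal limits of 7% and 15%, 90 and 14 with mitochondrial limits of 10% and 3%, 0 in cells of 1000 to 3000 and of at most 3000 UMIs, and 6 to 151 with a library left out. Same-numbered libraries did not deviate together (correlations 0.05, -0.02 and 0.04). H2-O KO replicate 2 was closest to H2-O WT replicate 3 at 0.02, and the numbers were not taken to pair mice. With a replicate block 161 genes were called between genotypes, 142 of them among the 176. The shares of members kept their direction, their difference between genotypes running from -5.66 points of Foxp3+ cells with the 3% mitochondrial limit to -27.4 with 10%, and p cannot go below 0.25 under that block. The low share of Foxp3+ minus Foxp3- cells, 1.00 points, was -2.00 and -0.85 with thinning to 500 and 1500 UMIs, -7.33 without thinning, 8.06 with the ribosomal limit of 15% and -0.045 to 3.14 with a library left out. Without the low-count filter 32.7% in place of 47.8% of the genes called between ribosomal classes were higher in members, 43.5% in place of 63.8% against Foxp3- cells and 56.5% in place of 69.9% between genotypes.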
